A study of Homo sapiens with 9 samples.

Results

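The TGF-beta pathway was followed here through 9 genes in A549 cells, a human lung adenocarcinoma line of epithelial origin, after knockdown of Cyclin K. The genes were TGFB1 and TGFB2 (ligands), INHBA (an activin subunit), TGFBR1 and TGFBR2 (receptors), SMAD2, SMAD3 and SMAD4 (signal carriers) and SMAD7 (inhibitor and target of the pathway). A row belonged to the set when one of its gene symbols was on this list of names. The list itself was drawn up with earlier results of these data known, so its counts beside all tested genes are a description. All 9 were found and all 9 passed the filter on low values, out of 31080 reference genes or joined genes in the deposited tables and 21048 that were tested. Cells received scrambled siRNA, siCyclin K#1 or siCyclin K#2, each with 3 independent samples, at 50 nM per the study's methods and for 48 h per the labels. Both Cyclin K siRNAs target CCNK, the gene of the cyclin that pairs with the transcriptional kinases CDK12 and CDK13. All 9 libraries share the same cell line, which is a single tumour line.

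TGF-beta and activin ligands are secreted in latent or inhibitable forms and bind a type II receptor serine/threonine kinase, which then activates a type I receptor. The type I receptor phosphorylates SMAD2 and SMAD3. These join SMAD4, enter the nucleus and switch genes on or off, and SMAD7 is one of the genes switched on and shuts the receptor down again. In lung epithelial cells the pathway is known for growth arrest, for matrix production and for the shift towards a mesenchymal state.

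CCNK itself was measured at 7.02 ± 0.107 FPKM (SD, n = 3) in scrambled cells, at 0.809 ± 0.0857 under siCyclin K#1 and at 0.844 ± 0.0661 under siCyclin K#2. The knockdown was thus present in every library of both siRNA groups. FPKM is the number of sequenced fragments scaled to exon length and to the size of the library. Steps in the deposited values gave a depth of 31333749 to 33767961 counted units per library, and whether a unit is a read or a read pair is not given in the sources used here. Of the A549 and epithelial markers, KRT18 was 69.8 to 91 FPKM over all libraries. KRT8 was 49.7 to 65.4 FPKM in scrambled cells, 80.6 to 105 under siCyclin K#1 and at least 93.7 under siCyclin K#2. ALDH1A1 was 529 to 570, 802 to 845 and 865 to 982 FPKM in that order, and CDH1 was 1.49 to 1.86, 2.77 to 4.6 and 1.19 to 2.26, while EPCAM (0 to 0.279) and KRT19 (0 to 0.108) were at or near 0. The 5 endothelial markers summed to 0.0908 to 0.394 FPKM, with PECAM1 at most at 0.0119. Of the 4 immune markers with a row, PTPRC was at most 0.00685 and LYZ at most 0.0712, and CD68 made up most of their sum at 30 to 39 FPKM in every library. The 5 fibroblast markers summed to 3.84 to 4.27 FPKM in scrambled cells, 6.22 to 7.64 under siCyclin K#1 and 4.52 to 4.77 under siCyclin K#2. Within that list PDGFRA was 3.4 to 3.75 FPKM in scrambled cells, 4.47 to 4.78 under siCyclin K#1 and 4.07 to 4.36 under siCyclin K#2. LUM was 0.297 to 0.397, 1.61 to 2.7 and 0.3 to 0.34 FPKM in the same order, while THY1 (at most 0.0265) and FAP (at most 0.0129) were near 0 throughout. The part of these marker shifts in the values below was not tested. In RNA pooled from a whole culture, a lower level can come from fewer cells with the transcript or from less of it per cell, and these cannot be told apart.

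The promoters of TGFB1, SMAD3 and SMAD7 are shown, out of the 5 genes that changed in one direction with each siRNA. TGFB1 and SMAD3 moved upwards and SMAD7 downwards. TGFBR2 and INHBA, which also rose with each siRNA, are not printed. Each line is the RefSeq window of 300 bases on GRCh38.p14, from 250 bases before the annotated start to 50 after it, read 5′ to 3′ on the gene's strand. The TGFB1 window is chr19:41353873-41354172 (minus strand), that of SMAD3 is chr15:67065352-67065651 (plus strand), and that of SMAD7 is chr18:48950916-48951215 (minus strand). Capitals mark matches on either strand to 4 motifs. The SMAD-binding element was searched as CAGAC. The palindrome GTCTAGAC is also bound by SMADs and holds no full match to the former. TGANTCA is the site of AP-1, a frequent partner of SMADs. GGGCGG is the core of the SP1 site.
TGFB1: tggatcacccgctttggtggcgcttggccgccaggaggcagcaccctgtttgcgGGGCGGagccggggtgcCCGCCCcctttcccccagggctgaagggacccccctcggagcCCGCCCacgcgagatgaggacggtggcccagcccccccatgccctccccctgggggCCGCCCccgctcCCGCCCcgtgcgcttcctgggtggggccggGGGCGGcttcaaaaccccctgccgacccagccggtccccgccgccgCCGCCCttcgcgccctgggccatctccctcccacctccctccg
SMAD3: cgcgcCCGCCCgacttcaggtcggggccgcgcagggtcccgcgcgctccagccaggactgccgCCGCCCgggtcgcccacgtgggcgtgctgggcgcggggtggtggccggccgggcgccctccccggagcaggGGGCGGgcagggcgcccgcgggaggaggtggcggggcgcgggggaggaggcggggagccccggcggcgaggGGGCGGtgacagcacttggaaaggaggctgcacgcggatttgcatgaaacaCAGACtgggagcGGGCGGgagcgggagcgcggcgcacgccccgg
SMAD7: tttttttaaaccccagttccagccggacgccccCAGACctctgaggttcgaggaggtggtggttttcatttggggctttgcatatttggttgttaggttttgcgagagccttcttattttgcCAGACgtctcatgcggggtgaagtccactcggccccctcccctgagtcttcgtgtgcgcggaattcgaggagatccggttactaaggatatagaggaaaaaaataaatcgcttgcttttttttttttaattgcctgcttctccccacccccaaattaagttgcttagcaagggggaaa
The TGFB1 window held 7 matches to GGGCGG and 0 to CAGAC. The SMAD3 window held 5 matches to GGGCGG and 1 to CAGAC, and the SMAD7 window held 2 matches to CAGAC and 0 to GGGCGG. For each of the 9 genes 1 window was searched. The palindrome was in none of these, and TGANTCA was found once, in the TGFBR2 window. Further RefSeq windows of TGFBR1, TGFBR2, SMAD2, SMAD3 and SMAD7 were not searched, so absence from those is not shown. For comparison, CAGAC was present in 45.3%, GGGCGG in 45%, TGANTCA in 7.71% and GTCTAGAC in 0.202% of the 35116 promoter windows of the same length. GC content of the windows was 77.3% for TGFB1, 80.3% for SMAD3 and 48.3% for SMAD7. The TGFBR2 window held 2 matches to GGGCGG and 0 to CAGAC, at 61.7% GC. That of INHBA held 0 matches to GGGCGG and 1 to CAGAC, at 43.3% GC. RefSeq gives 5 windows for SMAD3, 3 for SMAD7 and 1 for TGFB1. The window nearest to the 5′ end of each gene was used. That of SMAD3 has its start 1839 bases inside the annotated gene, and that of INHBA 2744 bases inside. A motif match is a description of the letters, not evidence of a bound factor.

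In the comparison of both siRNAs together against scrambled siRNA, 4 of the 9 genes rose and 1 fell at an adjusted p under 0.05, against a background of 28.6% of all tested genes (17% higher and 11.5% lower). TGFB1, TGFBR1, SMAD3 and INHBA rose and SMAD7 fell. Without scrambled replicate 2, 3 of the 9 were called (2 higher and 1 lower). In that run 4215 of 20594 tested genes were called, against 6015 of 21048 with all libraries. Under siCyclin K#1 alone, 5 rose and 3 fell (background 44.8%, with 26.8% higher and 18.1% lower). Under siCyclin K#2 alone, 6 rose and 1 fell (background 34.9%, with 19.8% higher and 15.2% lower). Among genes with a mean of at least 1 FPKM, 4 of 8 of the set were called with both siRNAs, beside 5192 of 11243. The numbers were 7 beside 7507 under siCyclin K#1 and 6 beside 6434 under siCyclin K#2. The comparisons share the 3 scrambled libraries, so their calls are not independent. The split of the background depends on the scaling: under siCyclin K#1, 5635 of all tested genes were called higher and 3800 lower as reported, against 4634 and 4686 with median-ratio rescaling. The median log2 fold change of the 9 genes was 0.59 with both siRNAs, 0.79 under siCyclin K#1 and 0.71 under siCyclin K#2, beside 0.06, 0.10 and 0.01 over all tested genes. Unless an alternative run is named, adjusted p-values are from limma on log2(FPKM + 0.1) with Benjamini-Hochberg adjustment over all 21048 genes. Fold changes are on that scale. Alternative runs with another filter or with a library left out adjust over the genes tested in that run.

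**Figure D1:**
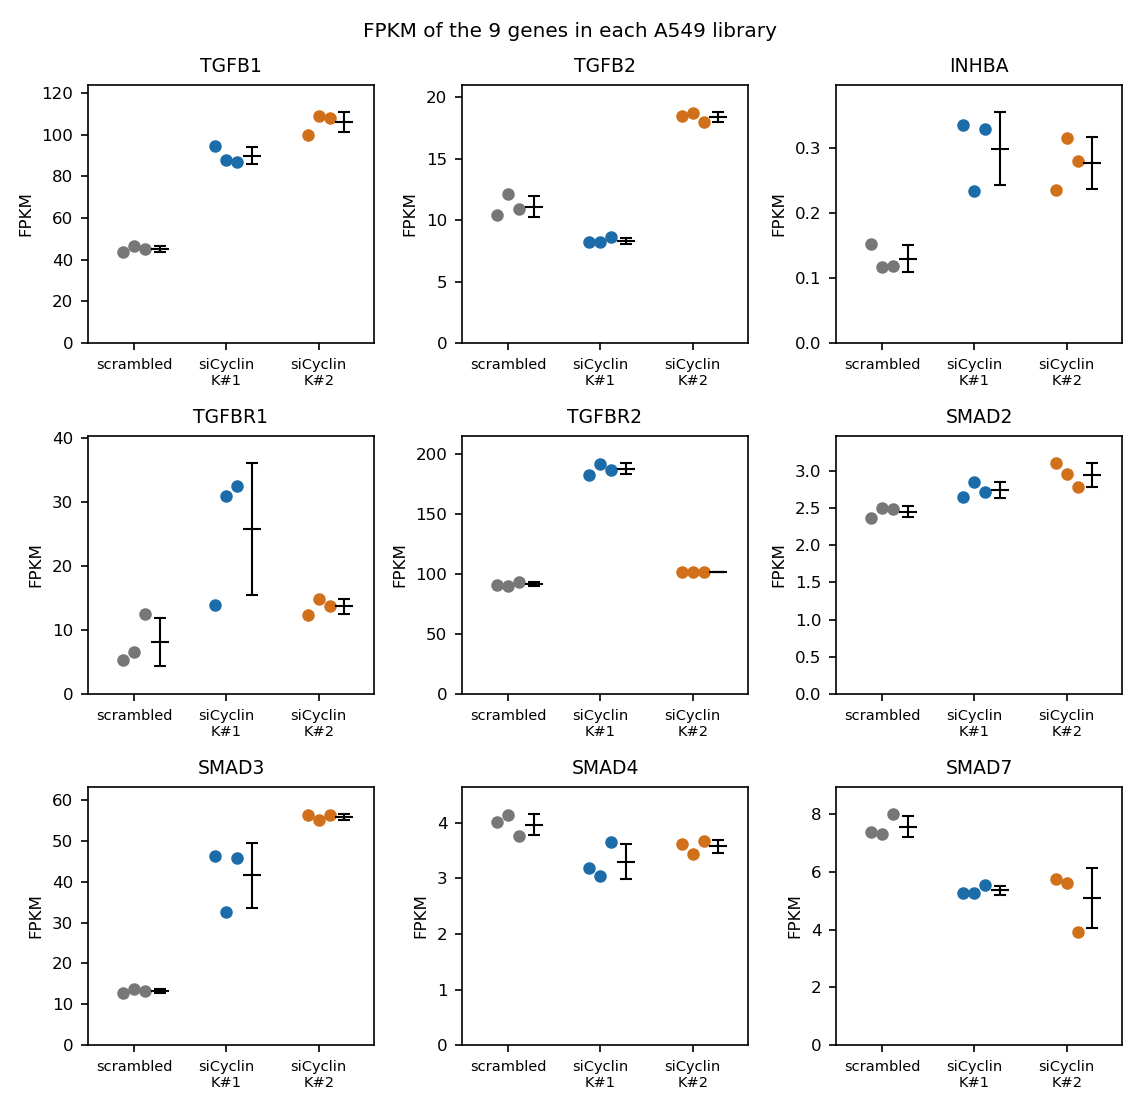
FPKM (vertical axis, from 0) of each of the 9 genes in each library, with 1 point per library and the mean ± SD of each group (n = 3) as a black mark beside it. TGFB1 and SMAD3 lie above all scrambled libraries in both siRNA groups, SMAD7 lies below them in both, and TGFB2 lies below them under siCyclin K#1 and above them under siCyclin K#2.

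TGFB1 encodes the most widely expressed TGF-beta ligand (ENSG00000105329, chr19:41301587-41353911, minus strand, GRCh38). Its level was 43.9, 46.5 and 45 FPKM in the scrambled libraries, 94.8, 88.1 and 87 under siCyclin K#1, and 100, 109 and 108 under siCyclin K#2. Every siRNA library lay above every scrambled library, and the siCyclin K#2 libraries lay above those of siCyclin K#1. The log2 fold change in TGFB1 was 1.11 ± 0.08 (SE) with both siRNAs (limma adjusted p = 1.5e-05), 0.99 ± 0.05 under siCyclin K#1 (adjusted p = 5.3e-07) and 1.23 ± 0.05 under siCyclin K#2 (adjusted p = 3.9e-07). The difference between the siRNAs, −0.23 ± 0.05 for siCyclin K#1 minus siCyclin K#2, passed as well (limma adjusted p = 0.0053).

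TGFB2 encodes a second TGF-beta ligand, which depends more than TGFB1 on the co-receptor TGFBR3 for binding. Its row also carried TGFB2-OT1, an overlapping RNA, so the value is for both together (annotated TGFB2 gene at chr1:218346235-218444619, plus strand). It was 10.4, 12.1 and 10.9 FPKM in scrambled cells, 8.19, 8.21 and 8.62 under siCyclin K#1, and 18.5, 18.7 and 18 under siCyclin K#2. The 3 groups did not overlap, and the siRNA groups lay on opposite sides of the scrambled one. TGFB2 fell under siCyclin K#1 (log2 fold change −0.41 ± 0.06, limma adjusted p = 0.00039) and rose under siCyclin K#2 (0.72 ± 0.06, adjusted p = 2.1e-05). The siRNAs differed by −1.13 ± 0.06 on the log2 scale (limma adjusted p = 2.7e-06). With the siRNAs pooled, the TGFB2 log2 fold change was 0.16 ± 0.32 (limma adjusted p = 0.76), a mean of opposite values that describes neither siRNA.

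INHBA encodes the beta A subunit of activin A and inhibin A (ENSG00000122641, chr7:41667168-41705834, minus strand). It was the lowest of the 9 genes in every library, at 0.153, 0.117 and 0.119 FPKM in scrambled cells, at 0.335, 0.234 and 0.329 under siCyclin K#1, and at 0.236, 0.316 and 0.28 under siCyclin K#2. Recovered from the steps in the values, these rest on 43, 31 and 32 counted units (reads or read pairs) in the scrambled libraries, on 90, 61 and 90 under siCyclin K#1 and on 63, 87 and 74 under siCyclin K#2. Both siRNA groups lay above the scrambled group and overlapped each other. INHBA rose under siCyclin K#1 (log2 fold change 0.79 ± 0.20, limma adjusted p = 0.011) and under siCyclin K#2 (0.71 ± 0.20, adjusted p = 0.024). At this level the pseudocount lowers the fold change, which for both siRNAs together was 0.75 ± 0.19 as reported (limma adjusted p = 0.015), 0.19 with a pseudocount of 1 and 1.09 with a pseudocount of 0.01. The INHBA call under siCyclin K#2 ended without scrambled replicate 2 (adjusted p = 0.064), without scrambled replicate 3 (0.064), without siCyclin K#2 replicate 2 (0.077) or replicate 3 (0.062), and with no filter on low values (0.051). That call also ended with the replicate number as a block in the fit, as given further below. The call with both siRNAs ended without scrambled replicate 2 (0.06) or replicate 3 (0.058), all by limma.

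TGFBR1 encodes the type I receptor, the kinase that phosphorylates SMAD2 and SMAD3 (ENSG00000106799, chr9:99104038-99154192, plus strand). It was 5.34, 6.62 and 12.5 FPKM in scrambled cells, 14, 30.9 and 32.5 under siCyclin K#1, and 12.4, 14.9 and 13.7 under siCyclin K#2. In the scrambled and siCyclin K#1 groups the libraries spread more for this gene than for any other of the 9, with coefficients of variation of 46.8% and 39.8%. Scrambled replicate 3 lay just above the lowest siCyclin K#2 library, and siCyclin K#1 replicate 1 lay among the siCyclin K#2 libraries. TGFBR1 rose under siCyclin K#1 (log2 fold change 1.65 ± 0.37, limma adjusted p = 0.0061) and with both siRNAs together (1.24 ± 0.38, adjusted p = 0.035). Under siCyclin K#2 the value was 0.83 ± 0.37 and did not pass (limma adjusted p = 0.12). The siRNAs differed by 0.82 ± 0.37, which did not pass either (limma adjusted p = 0.14).

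The siCyclin K#1 call on TGFBR1 held under every alternative run, while the others turned on single libraries. Without scrambled replicate 3 the log2 fold change was 1.59 with both siRNAs and 1.18 under siCyclin K#2, and the latter then passed (limma adjusted p = 0.032). Without siCyclin K#1 replicate 1 the siCyclin K#2 value stayed at 0.83 and passed (limma adjusted p = 0.05 after rounding), and the difference between the siRNAs became 1.21 and passed (adjusted p = 0.024). The siCyclin K#2 value also passed with the replicate number as a block in the fit. The call with both siRNAs ended without scrambled replicate 1 (log2 fold change 0.99, limma adjusted p = 0.15), without scrambled replicate 2 (1.14, adjusted p = 0.12) and without siCyclin K#1 replicate 2 (1.09, adjusted p = 0.054). It also ended without the trend in the variance prior (limma adjusted p = 0.053) and with no filter on low values (0.052).

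TGFBR2 encodes the type II receptor that binds the ligand first (ENSG00000163513, chr3:30606502-30694142, plus strand). It was the highest of the 9 genes in scrambled cells, at 91.2, 90.3 and 93.7 FPKM. It stood at 183, 192 and 187 FPKM under siCyclin K#1 and at 102 in each of the 3 siCyclin K#2 libraries. All 6 siRNA libraries lay above the scrambled ones, but the siCyclin K#2 libraries only slightly. TGFBR2 rose under siCyclin K#1 (log2 fold change 1.03 ± 0.03, limma adjusted p = 3.4e-08) and under siCyclin K#2 (0.15 ± 0.03, adjusted p = 0.0023). The siRNAs differed by 0.88 ± 0.03 (limma adjusted p = 2.8e-07). Both siRNAs together gave 0.59 ± 0.25, which did not pass (limma adjusted p = 0.1), because that fit counts the gap between the siRNAs as spread. Without the trend in the variance prior the siCyclin K#2 call ended (limma adjusted p = 0.051).

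SMAD3 encodes the receptor-activated SMAD that binds DNA directly (chr15:67063763-67195195, plus strand). Its row was a StringTie locus, a merged transcript model, and the coordinates given are those of the annotated gene. It was 12.7, 13.7 and 13.3 FPKM in scrambled cells, 46.4, 32.5 and 45.8 under siCyclin K#1, and 56.4, 55.1 and 56.3 under siCyclin K#2. The groups did not overlap, and siCyclin K#1 replicate 2 lay apart from the other libraries of its group. SMAD3 rose under siCyclin K#1 (log2 fold change 1.63 ± 0.12, limma adjusted p = 7.7e-06), under siCyclin K#2 (2.07 ± 0.12, adjusted p = 3.6e-06) and with both (1.85 ± 0.16, adjusted p = 3.5e-05). The siRNAs differed by −0.45 ± 0.12 (limma adjusted p = 0.023). That difference no longer passed with only the 2 siRNA groups in the fit (limma adjusted p = 0.057), nor without siCyclin K#2 replicate 1 (0.062), replicate 2 (0.055) or replicate 3 (0.063).

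SMAD3 was also the gene that passed the thresholds that the study's methods set (more than 3-fold, with p below 0.01 before adjustment) with each siRNA and with both together. These thresholds called 2.29% of tested genes with both siRNAs, 4.67% under siCyclin K#1 and 1.94% under siCyclin K#2. TGFBR1 passed them under siCyclin K#1, and none of the other 7 genes passed them against scrambled siRNA. Under siCyclin K#1 both genes lay only just past 3-fold. The SMAD3 log2 fold change of 1.63 went down to 1.5 over the alternatives and to 1.54 with 1 library left out, below 3-fold. That of TGFBR1, 1.65, went down to 1.4 with 1 library left out, also below 3-fold. Between the siRNAs 0 of the 9 genes passed these thresholds (background 1.53%), while limma called 4 at an adjusted p under 0.05 and the same 4 at an unadjusted p under 0.05.

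SMAD2 encodes the other receptor-activated SMAD of TGF-beta and activin (ENSG00000175387, chr18:47808957-47931146, minus strand). It was 2.37, 2.5 and 2.49 FPKM in scrambled cells, 2.65, 2.85 and 2.71 under siCyclin K#1, and 3.1, 2.95 and 2.78 under siCyclin K#2. All siRNA libraries lay above all scrambled ones by a small margin. SMAD2 rose under siCyclin K#2 (log2 fold change 0.25 ± 0.07, limma adjusted p = 0.02). Under siCyclin K#1 the value was 0.15 ± 0.07 (limma adjusted p = 0.11), and it turned to −0.02 under quantile normalization. The siCyclin K#2 call on SMAD2 ended under quantile normalization (limma adjusted p = 0.097) and without scrambled replicate 1 (0.063), siCyclin K#2 replicate 1 (0.068) or siCyclin K#2 replicate 2 (0.054). Its FPKM is divided by an exon length of 36366 bases, since the annotation holds a transcript of 34526 bases for this gene. The exon lengths of the other 8 genes were 3238 to 13123 bases, so the level of SMAD2 beside theirs depends on that annotation, while its change does not.

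SMAD4 encodes the common partner of the activated SMADs (chr18:51028394-51085045, plus strand), and its row was again a StringTie locus. It was 4.01, 4.14 and 3.77 FPKM in scrambled cells, 3.18, 3.05 and 3.65 under siCyclin K#1, and 3.63, 3.45 and 3.67 under siCyclin K#2. All siRNA libraries lay below all scrambled ones. SMAD4 fell under siCyclin K#1 (log2 fold change −0.27 ± 0.08, limma adjusted p = 0.023), a call that ended without scrambled replicate 1 (0.062) or 2 (0.074) or without siCyclin K#1 replicate 1 (0.068) or 2 (0.077). Under siCyclin K#2 it was −0.15 ± 0.08 (limma adjusted p = 0.2), which passed only under quantile normalization (−0.24, adjusted p = 0.049).

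SMAD7 encodes the inhibitory SMAD that recruits ubiquitin ligases to the type I receptor (ENSG00000101665, chr18:48919853-48950711, minus strand). It was 7.39, 7.34 and 8.01 FPKM in scrambled cells, 5.28, 5.29 and 5.54 under siCyclin K#1, and 5.76, 5.63 and 3.92 under siCyclin K#2. All 6 siRNA libraries lay below the scrambled ones, and siCyclin K#2 replicate 3 was the lowest. SMAD7 fell with both siRNAs (log2 fold change −0.54 ± 0.12, limma adjusted p = 0.008), under siCyclin K#1 (−0.49 ± 0.13, adjusted p = 0.015) and under siCyclin K#2 (−0.58 ± 0.13, adjusted p = 0.0082). Without scrambled replicate 3 the siCyclin K#1 value was −0.45 and no longer passed (limma adjusted p = 0.05 after rounding). Without siCyclin K#2 replicate 3 the siCyclin K#2 value was −0.41.

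**Figure D2:**
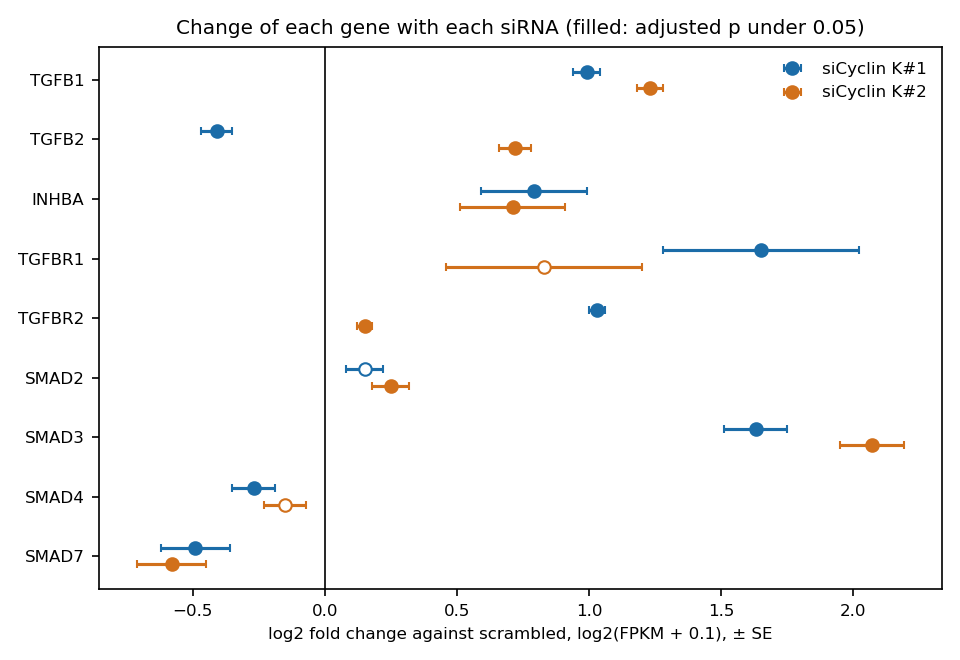
Log2 fold change of each gene against scrambled siRNA on the log2(FPKM + 0.1) scale (horizontal axis), with bars of 1 SE from limma and filled points for an adjusted p under 0.05. TGFB1, INHBA, TGFBR2 and SMAD3 are to the right with filled points for both siRNAs, SMAD7 is to the left for both, and TGFB2 has 1 filled point on each side of 0.

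An exact two-sided permutation test of each gene's mean level, 6 siRNA libraries against 3 scrambled over all 84 splits, gave p = 0.0119 for TGFB1, SMAD2, SMAD3, SMAD7 and INHBA, the smallest p this design allows. It gave an exact p = 0.0238 for TGFBR2 and SMAD4, 0.0357 for TGFBR1 and 0.655 for TGFB2, and these 9 p-values are not corrected for their number. In 7 of the 9 genes the 6 siRNA and the 3 scrambled libraries did not overlap, which held for 32.6% of all tested genes. The corresponding numbers were 9 genes under siCyclin K#1 (background 53.5%) and 8 under siCyclin K#2 (background 46.8%). A test of 3 libraries against 3 cannot go below an exact p of 0.1 and was not run. When the average of the siRNAs was instead taken in the fit with 3 groups, TGFB2 (limma adjusted p = 0.033), TGFBR2 (2.5e-07), SMAD2 (0.023) and SMAD4 (0.039) passed as well, since that fit does not count the gap between the siRNAs as spread.

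Compared directly, the siRNAs differed at an adjusted p under 0.05 in 4 of the 9 genes (TGFB1, TGFB2, TGFBR2 and SMAD3), beside 29.4% of all tested genes, and in the same 4 the libraries of the siRNA groups did not overlap, beside 42.7%. TGFBR2 was higher under siCyclin K#1 (background 17.1% higher), while the 2 ligands and SMAD3 were higher under siCyclin K#2 (background 12.3% lower under siCyclin K#1). Over all tested genes this split was 3600 higher and 2591 lower, and 2836 and 3232 with median-ratio rescaling. Among genes with a mean of at least 1 FPKM, 4 of 8 of the set differed between the siRNAs, beside 5476 of 11243. The remaining differences did not pass: 0.82 ± 0.37 for TGFBR1, −0.10 ± 0.07 for SMAD2, −0.12 ± 0.08 for SMAD4, 0.09 ± 0.13 for SMAD7 and 0.08 ± 0.20 for INHBA on the log2 scale. These values are too wide to show that the siRNAs acted alike on those genes. CCNK differed by −0.06 ± 0.10 between the siRNAs (limma adjusted p = 0.73).

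Ordered by mean FPKM in scrambled cells, the genes ran TGFBR2 (91.7), TGFB1 (45.1), SMAD3 (13.2), TGFB2 (11.1), TGFBR1 (8.15), SMAD7 (7.58), SMAD4 (3.97), SMAD2 (2.45) and INHBA (0.13). TGFB2 and TGFBR1 overlapped between libraries in this order, as did TGFBR1 and SMAD7, while the other neighbours did not. Under siCyclin K#2, TGFB1 and TGFBR2 overlapped at the top, at 106 and 102 FPKM on average. Under siCyclin K#1, TGFBR1 moved above TGFB2. Levels are per length and carry the limit on SMAD2 given above.

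The balance within the pathway moved with these changes. The ratio of SMAD3 to SMAD4, in FPKM, was 3.33 ± 0.183 (SD, n = 3) in scrambled cells, 12.6 ± 1.96 under siCyclin K#1 and 15.6 ± 0.342 under siCyclin K#2. The ratio of SMAD3 to SMAD2 was 5.4 ± 0.0795, 15.3 ± 3.37 and 19.1 ± 1.09 in the same order. In both ratios every siRNA library lay above every scrambled one. The ratio of TGFB1 to TGFB2 was 4.06 ± 0.192 in scrambled cells, 10.8 ± 0.749 under siCyclin K#1 and 5.76 ± 0.309 under siCyclin K#2, and the 3 groups did not overlap. The ratio of TGFBR2 to TGFBR1 spread from 7.5 to 17.1 in the scrambled libraries alone and overlapped between the groups.

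**Figure D3:**
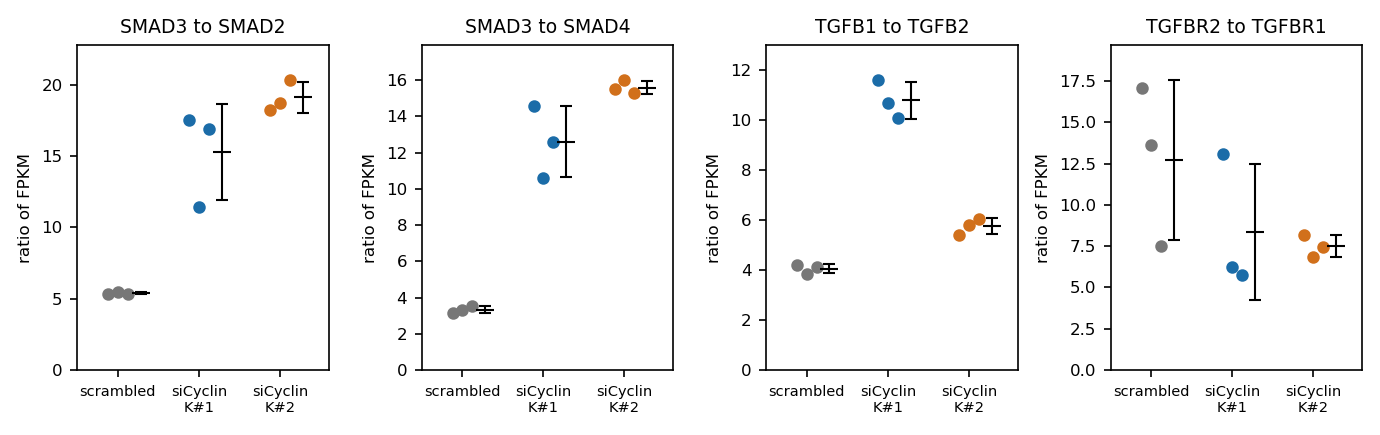
Ratio of FPKM between pairs of the genes (vertical axis, from 0) in each library, with 1 point per library and the mean ± SD of each group (n = 3) beside it. SMAD3 rises against SMAD2 and SMAD4 in all 6 siRNA libraries, TGFB1 against TGFB2 most under siCyclin K#1 (mean 10.8), and the receptor ratio overlaps between groups.

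The rest of the pathway was read from 5 lists with 109 genes, of which 93 passed the filter on low values. With both siRNAs 27 of the 93 rose and 9 fell, 38.7% in all beside 28.6% of all tested genes. Under siCyclin K#1 43 rose and 21 fell (68.8% beside 44.8%), and under siCyclin K#2 35 rose and 13 fell (51.6% beside 34.9%). The fallen listed genes with both siRNAs numbered 4 without scrambled replicate 1 and 3 without scrambled replicate 2, against 9. Over all tested genes the fallen numbered 1609 and 1611 in these runs, against 2431. Under siCyclin K#2 the fallen listed genes numbered 8 without scrambled replicate 1 or 3 and 7 without siCyclin K#2 replicate 3, against 13. Over all tested genes the fallen numbered 2753, 2721 and 2826 in that order, against 3192. The background holds many genes of low level. Among genes with a mean of at least 1 FPKM, 33 of 71 listed genes were called with both siRNAs, beside 5192 of 11243. The numbers were 49 beside 7507 under siCyclin K#1 and 44 beside 6434 under siCyclin K#2. Among these genes the listed share was thus close to the background with both siRNAs and under siCyclin K#1. Under siCyclin K#2 it was only slightly above the background. The shares given per list below are set beside all tested genes, are not matched for level and carry that limit. The median log2 fold change over the lists was 0.19, 0.27 and 0.20, beside 0.06, 0.10 and 0.01 over all tested genes. A further 16 listed genes were not tested, and BMP3 and TGIF2 among them had no row and were not analysed here.

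**Figure D4:**
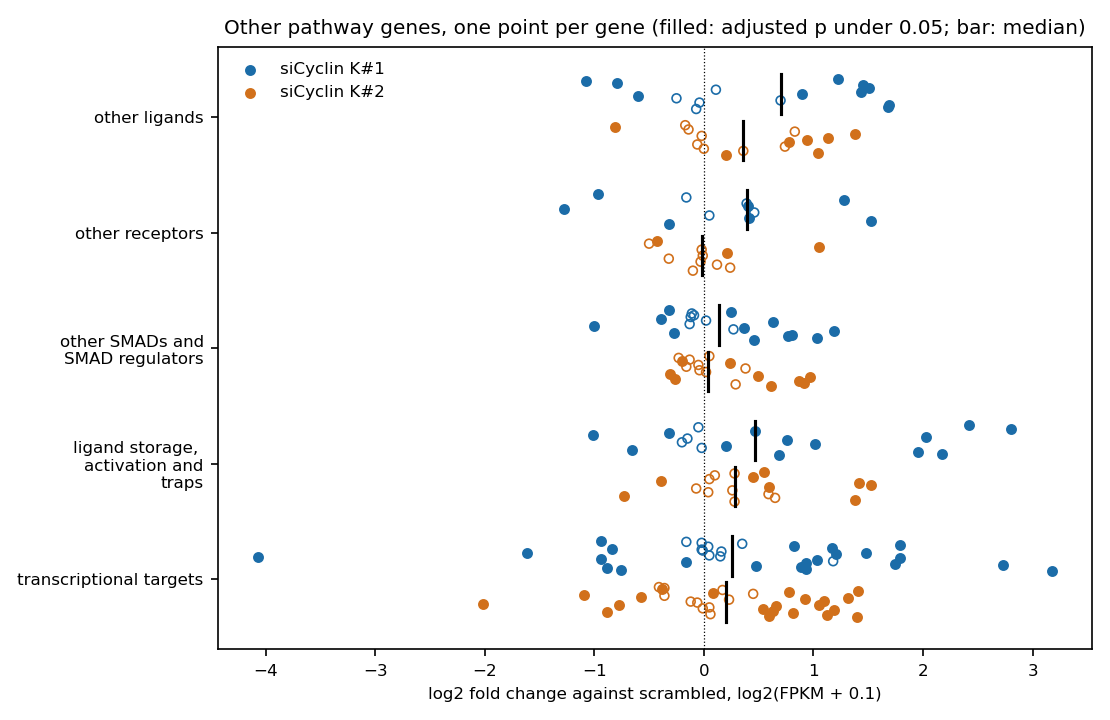
Log2 fold change against scrambled siRNA, on the log2(FPKM + 0.1) scale, of the 93 tested genes in 5 lists, with 1 point per gene and siRNA, filled at an adjusted p under 0.05, and a bar at each median. Under siCyclin K#1 the highest point is ACTA2 (3.18) and the lowest is IL11 (−4.07), which is also the lowest point under siCyclin K#2 (−2.02).

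Among 15 tested ligands of the wider family, 7 rose and 3 fell under siCyclin K#1 (66.7%, beside 44.8% of all tested genes). With the second siRNA, siCyclin K#2, 6 rose and 1 fell (46.7% beside 34.9%). INHBB, the other activin beta subunit, was 32.7 ± 1.41 FPKM (SD, n = 3) in scrambled cells, 93.0 ± 5.19 under siCyclin K#1 and 85.5 ± 8.05 under siCyclin K#2. It rose with both (log2 fold change 1.44 ± 0.08, limma adjusted p = 1.6e-06), as INHBA did at a far lower level. GDF15, a stress-induced ligand of the family, stood at 32.4 ± 1.26, 21.3 ± 0.853 and 55.9 ± 6.06 FPKM. GDF15 fell under siCyclin K#1 (log2 fold change −0.60 ± 0.07, limma adjusted p = 0.00019) and rose under siCyclin K#2 (0.78 ± 0.07, adjusted p = 6.3e-05), as TGFB2 did.

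Among 11 tested receptors and co-receptors, 4 rose and 3 fell under siCyclin K#1 (63.6%, beside 44.8% of all tested genes). Of the same genes, 2 rose and 1 fell under siCyclin K#2, and 27.3% is below the 34.9% of all tested genes, while the 27.3% called with both siRNAs is near the background of 28.6%. BMPR2, the type II receptor for bone morphogenetic proteins, was 5.6 ± 0.342 FPKM in scrambled cells, 13.8 ± 0.329 under siCyclin K#1 and 11.7 ± 0.215 under siCyclin K#2. It rose with both (log2 fold change 1.17 ± 0.09, limma adjusted p = 1.5e-05). BMPR1A, a type I receptor of the same ligands, rose from 4.5 ± 0.264 to 5.97 ± 0.212 and 5.23 ± 0.184 FPKM (log2 fold change 0.30 ± 0.09, limma adjusted p = 0.026). TGFBR3, the co-receptor betaglycan, fell from 7.83 ± 0.153 FPKM to 3.95 ± 0.293 and 5.77 ± 0.309 (log2 fold change −0.70 ± 0.17, limma adjusted p = 0.011), whereas TGFBR1 and TGFBR2 did not fall.

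Among 18 tested SMADs and SMAD regulators, 8 rose and 4 fell under siCyclin K#1 (66.7%, beside 44.8% of all tested genes). In the siCyclin K#2 libraries, 6 rose and 3 fell (50% beside 34.9%), while the 27.8% called with both siRNAs is near the background of 28.6%. SKI, a co-repressor that binds SMADs, was 7.95 ± 0.144 FPKM in scrambled cells, 18.2 ± 0.551 under siCyclin K#1 and 15.6 ± 0.598 under siCyclin K#2 (log2 fold change 1.08 ± 0.08, limma adjusted p = 1.5e-05). NEDD4L, a ubiquitin ligase that acts on activated SMAD2 and SMAD3, rose from 2.26 ± 0.0312 FPKM to 3.92 ± 0.161 and 4.33 ± 0.136 (log2 fold change 0.84 ± 0.08, limma adjusted p = 7.1e-05). PPM1A, a phosphatase of SMADs, fell by 0.26 ± 0.08 on the log2 scale with both siRNAs (limma adjusted p = 0.035). SMAD1, which carries bone morphogenetic protein signals, was 1.91 ± 0.165, 2.5 ± 0.102 and 1.52 ± 0.173 FPKM and moved in opposite directions, up under siCyclin K#1 (0.37 ± 0.10, limma adjusted p = 0.017) and down under siCyclin K#2 (−0.31 ± 0.10, adjusted p = 0.046).

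Among 17 tested genes of ligand storage, activation and trapping, 10 rose and 3 fell under siCyclin K#1 (76.5%, beside 44.8% of all tested genes). The siCyclin K#2 comparison gave 6 that rose and 2 that fell (47.1% beside 34.9%). FBN1, the microfibril protein that anchors latent ligand complexes, was 1.75 ± 0.212 FPKM in scrambled cells, 8.18 ± 0.409 under siCyclin K#1 and 4.68 ± 0.226 under siCyclin K#2 (log2 fold change 1.77 ± 0.24 with both, limma adjusted p = 0.00043). LTBP1, which binds latent TGF-beta and tethers it to the matrix, rose from 2.94 ± 0.293 FPKM to 12.3 ± 0.29 and 8.04 ± 0.597 (1.73 ± 0.19, limma adjusted p = 0.00012). Both of these were higher under siCyclin K#1 than under siCyclin K#2, by 0.79 ± 0.09 for FBN1 and 0.61 ± 0.08 for LTBP1. FSTL1, a secreted follistatin-like protein, fell from 40.5 ± 1.47 FPKM to 25.6 ± 1.19 and 24.3 ± 0.353 (−0.70 ± 0.06, limma adjusted p = 2.1e-05). The row of LTBP2, a relative of LTBP1 that does not bind latent TGF-beta and here joined with AC013451.2, fell from 4.04 ± 0.315 FPKM to 1.96 ± 0.0463 and 3.06 ± 0.0657 (−0.70 ± 0.19, limma adjusted p = 0.022).

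Among 32 tested transcriptional targets, 14 rose and 8 fell under siCyclin K#1 (68.8%, beside 44.8% of all tested genes). For siCyclin K#2, 15 rose and 6 fell (65.6% beside 34.9%). With both siRNAs together, 12 rose and 4 fell (50% beside 28.6%). ACTA2, smooth muscle actin, was 0.475 ± 0.0801 FPKM in scrambled cells, 5.09 ± 0.112 under siCyclin K#1 and 1.41 ± 0.0436 under siCyclin K#2 (log2 fold change 2.29 ± 0.51 with both, limma adjusted p = 0.0074). TSC22D1, a leucine zipper protein found as a TGF-beta-stimulated gene, rose from 3.55 ± 0.268 FPKM to 12.5 ± 0.843 and 9.59 ± 0.49 (1.60 ± 0.13, limma adjusted p = 2.2e-05).

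With both siRNAs together, IL11 and SPHK1 fell most among the targets that met the naming rule. IL11, a cytokine of the IL6 family, fell from 53.1 ± 2.13 FPKM to 3.08 ± 0.356 under siCyclin K#1 and 13.1 ± 1.4 under siCyclin K#2 (log2 fold change −3.04 ± 0.58, limma adjusted p = 0.0033). SPHK1, a sphingosine kinase, fell from 1.82 ± 0.484 FPKM to 0.948 ± 0.0536 and 0.832 ± 0.383 (−0.97 ± 0.26, limma adjusted p = 0.02). CDKN1A, the p21 inhibitor of cyclin-dependent kinases, and ANGPTL4, a secreted lipase inhibitor, each moved in opposite directions with the siRNAs. CDKN1A rose under siCyclin K#1 (0.48 ± 0.07, limma adjusted p = 0.00051) and fell under siCyclin K#2 (−0.88 ± 0.07, adjusted p = 2e-05). ANGPTL4 fell under siCyclin K#1 (−0.76 ± 0.10, limma adjusted p = 0.00025) and rose under siCyclin K#2 (0.59 ± 0.10, adjusted p = 0.0015). The targets as a list therefore did not share one direction with either siRNA.

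For the 5 genes of the set that changed in one direction with each siRNA, the nearest patterns among 11243 genes with a mean of at least 1 FPKM were sought over the 9 libraries, as the smallest root mean square difference in log2 values from the scrambled mean. The genes nearest to TGFB1 were CHST3 (0.059), NUDC (0.066) and TNIP1 (0.070). Those nearest to TGFBR2 were PTPRU (0.056), DSG2 (0.068) and CD9 (0.072). SMAD3 had no gene as close, with PFKL (0.188), the joined row of TBC1D10B, AC116348.4 and SEPT1 (0.198) and GOLGA2 (0.203) next to it. SMAD7 was followed by AC115223.1 (0.079), FZD3 (0.091) and BTBD6 (0.097), and INHBA by RIOK1 (0.117), RARA (0.118) and the joined row of CCDC144A (0.119). The pseudocount lowers the change of INHBA far more than that of the genes searched, so its neighbours match the lowered change. All libraries and the scaling are shared between the genes so compared, and nothing about shared function follows from these distances.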

How the data were processed

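Poly(A) status and strand were not given in the sources used here. The authors sequenced total RNA of 9 A549 samples with paired Illumina reads and deposited FPKM values per gene, made with StringTie (1.3.3b), 1 table per library with no column of tests. The aligner was not given in the sources used here. Gene coordinates were those of GRCh38. In every table, 25125 of 56252 features carried no reference gene and were left out, and rows of 1 gene were summed. Libraries were grouped by their titles. From the deposited FPKM, genes with at least 0.1 FPKM in at least 3 libraries were tested as log2(FPKM + 0.1) with limma (3.58.1, R 4.3.3, eBayes with trend) and Benjamini-Hochberg adjustment, both siRNAs against scrambled as 2 groups and single siRNAs in a fit with 3 groups. The fit was tested on simulated data. Replicates were not duplicates (chi-square per degree of freedom 13.4 to 17.3). Multiplying FPKM by GENCODE exon length gave whole units (reads or read pairs), within 0.02 of a unit, for 95.8% to 96.2% of values under 50 units, from which depth was taken. The 9 genes and the lists were chosen with earlier results of these data known. Named genes were the 9, CCNK, up to 2 listed genes per list that rose and 2 that fell most without overlap at a mean of at least 1 FPKM, up to 2 with opposite directions, and the 3 nearest patterns of a gene changed one way by each siRNA. Alternatives were other pseudocounts, filters, scalings, row choices and variance priors, a replicate block, other group fits and each library left out.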

Additional observations from a re-analysis of the deposited data

Results flagged for a closer look

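The siRNAs differed from each other, by limma's direct comparison with Benjamini-Hochberg adjustment over all tested genes, in some of the genes described above from the set and its lists. Among the 9 genes these were TGFB1 (log2 difference −0.23, siCyclin K#1 minus siCyclin K#2), TGFB2 (−1.13), TGFBR2 (0.88) and SMAD3 (−0.45). Of the ligands and receptors listed beside them, GDF15 (−1.38) and TGFBR3 (−0.54) were lower with siCyclin K#1, and BMPR2 (0.23) and BMPR1A (0.19) were higher. SKI (0.22) and SMAD1 (0.69) were higher with siCyclin K#1. In the storage list FBN1 (0.79) and LTBP1 (0.61) were higher with siCyclin K#1, and the row of LTBP2 and AC013451.2 (−0.62) was lower. Among the targets ACTA2 (1.78), TSC22D1 (0.38) and CDKN1A (1.35) were higher with siCyclin K#1, and IL11 (−2.05) and ANGPTL4 (−1.35) were lower. The listed genes were named for the size or the opposite directions of their changes, so how many of them differ is partly fixed by that choice. Over the 93 tested genes of the lists 45.2% differed between the siRNAs, beside 29.4% of all tested genes. At a mean of at least 1 FPKM, 39 of 71 listed genes differed, beside 5476 of 11243.

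Groups of 3 libraries are too small to search for a library that stands apart, so the 6 siCyclin K libraries were searched together. SMAD7 in siCyclin K#2 replicate 3 (3.92 FPKM) lay far below the other 5, and FSTL1 in siCyclin K#1 replicate 3 (27 FPKM) lay above the other 5. Over 28 genes chance would give about 1.4 such libraries, at 1 in 20 each, if the 6 libraries were a single group. In 18 of the 28 genes the siRNAs differed, which widens the range of the 6 libraries. The rate need not hold for those genes, and a library apart within its own siRNA group can be missed.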

How the results depend on the processing

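Of 712 recomputed log2 fold changes of the 9 genes, 671 kept their direction and their side of the threshold, 27 no longer passed, 10 newly passed and 4 changed sign. Those 4 were SMAD2 with siCyclin K#1 under quantile normalization (−0.02), SMAD7 between the siRNAs without siCyclin K#2 replicate 3 (−0.08), and INHBA between the siRNAs under quantile normalization (−0.10) and without siCyclin K#2 replicate 1 (−0.00216), and none of these passed the threshold in either form. Between the siRNAs, leaving out 1 library at a time moved SMAD7 between −0.08 and 0.19 and INHBA between −0.00216 and 0.20. TGFB1, SMAD3 and TGFB2 with each siRNA against scrambled, and TGFBR2 with siCyclin K#1, kept a limma adjusted p under 0.05 in every alternative run. With both siRNAs, the number of the 9 genes called was 3 to 5 with 1 library left out, against 5, and the 3 came without scrambled replicate 2. Over all tested genes the number called was 4213 to 6092 with 1 library left out, against 6015, and 4215 without scrambled replicate 2. At a fold change over 2 in place of 3, with p under 0.01, 3 of the 9 genes passed with both siRNAs, 2 with siCyclin K#2 and 1 between the siRNAs, against 1, 1 and 0. Median-ratio rescaling and quantile normalization shifted the median of all genes with siCyclin K#1 by −0.10 and −0.12, and SMAD7 fell and SMAD3 and TGFB1 rose under both. The labels share replicate numbers, but the deviations of libraries with one number were not related (correlations of −0.0711 to 0.0379 over 11243 genes). With the replicate number as a block, 5, 8, 7 and 4 of the 9 genes passed with both siRNAs, siCyclin K#1, siCyclin K#2 and between the siRNAs, as without it, although with siCyclin K#2 TGFBR1 passed (adjusted p = 0.049 by limma) and INHBA did not (0.053). Depth limits INHBA most, at 31 to 90 counted units per library. The causes of these shifts were not tested.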

Other observations

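Some pathway genes outside the naming rule were looked at after their values were seen. PMEPA1, a membrane protein that restrains TGF-beta signals, rose from 26.6 FPKM (mean of 3) in scrambled cells to 46.3 under siCyclin K#1 and 48.6 under siCyclin K#2, a log2 fold change of 0.83 with both (limma adjusted p = 1.5e-05). BAMBI, a pseudoreceptor that blocks receptor pairing, rose from 9.96 to 13.7 and 15.2 FPKM (0.53, limma adjusted p = 0.00083). SMAD6, the inhibitory relative of SMAD7, was 3.96, 3.64 and 3.87 FPKM and did not pass with either siRNA (limma adjusted p = 0.52 and 0.89).

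COL1A1, a matrix collagen, was 2.03 FPKM in scrambled cells, 14 under siCyclin K#1 and 3.19 under siCyclin K#2, and differed between the siRNAs by 2.10 (limma adjusted p = 7.1e-07). THBS1, which activates latent TGF-beta, stood at 5.6, 30.3 and 8.35 FPKM and differed by 1.86 (limma adjusted p = 6e-06). Both were higher under siCyclin K#1, as TGFBR2 was.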
